A study of Homo sapiens with 148 samples.

Results

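The genes examined were the 41 WNT ligands, Frizzled receptors and secreted WNT modulators in a table of 49085 gene names (50451 entries). They were chosen by gene name, with earlier results of these data known. They comprise 19 WNT ligands, 10 Frizzled (FZD) receptors, 4 Dickkopf (DKK) proteins, 4 secreted Frizzled-related proteins (SFRP) and 4 R-spondins (RSPO). Each name has a single entry. Human H9 embryonic stem cells (hESCs), an established line with wild-type genotype, were the undifferentiated stage, and all other stages were derived from the same line by pancreatic differentiation in suspended spheroids. Definitive endoderm (DE) was collected at day 4, primitive gut tube-like cells (PGT) at day 7, pancreatic progenitors (PP) at day 14 and stem cell-derived β-cell (SC-β) organoids at day 35. A further stage, PH, has the same genotype and treatment in the labels, but neither its abbreviation nor its collection day is given, so it is set apart here. RNA-seq covers 12 of the 148 samples of the series, 2 for each of the 6 stages. The authors deposited the mean of each pair as TPM, a transcript level scaled for gene length and to the same total in every sample, so levels of different genes can be set side by side. Every value below is such a mean, without an error or a test, and a difference between stages could not be set against the spread between replicates. Ratios are log2 ratios of TPM after 1 TPM was added to both stages, and a gene is called higher or lower from 2-fold on that scale.

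WNT proteins are secreted, lipid-modified ligands that bind Frizzled receptors together with the co-receptors LRP5 and LRP6. When the pathway is engaged, β-catenin escapes destruction and activates target genes with TCF and LEF factors, while some ligands, WNT5A and WNT11 among them, act largely without β-catenin. SFRPs bind WNTs outside the cell, DKK1, DKK2 and DKK4 act on LRP5 and LRP6, and R-spondins prolong the life of Frizzled receptors at the surface by removing the ligases ZNRF3 and RNF43. In endoderm, WNT activity favours posterior fates and its inhibition favours foregut, from which pancreas and liver arise. The differentiation protocol itself activates the pathway, since CHIR99021, an inhibitor of the kinase GSK3, was in the medium on day 1. By the study's methods, activin A, CHIR99021 and Y27632 were given first, KGF next, then KGF with Sant1, retinoic acid, LDN193189, PdBU and Y27632, and from the PP stage on Sant1, retinoic acid, XXI, betacellulin, Alk5i II and T3, the last pair alone at the end.

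The stage markers followed the labels in part. The pluripotency genes NANOG, POU5F1 and SOX2 summed to 1627 TPM in hESCs, and SOX17, CXCR4, FOXA2 and GSC to 521 TPM in DE against 17.1 TPM in hESCs. All 4 pancreatic progenitor markers reached 1 TPM in PP, but PDX1 was at only 3.17 TPM, and in PH it was at 0.0173 TPM. The 4 together were at 30.1 TPM in PP and 35.1 TPM in PH, so the list did not separate these stages as PDX1 did. Markers of other cell types were present as well. The 8 mesenchymal markers summed to 63.4 to 90.8 TPM in hESCs, DE and PGT, 175 TPM in PP, 994 TPM in PH and 1880 TPM in SC-β organoids, where all 8 reached 1 TPM. The 6 neural markers summed to 340 TPM in PH, with HES5 at 109.8 TPM against at most 1.51 TPM elsewhere. Outside PH most of the neural sum was NES, at 121 of 132 TPM in hESCs, 50.9 of 60.7 in PP and 111 of 133 in SC-β organoids. NES was at 136 TPM in PH. The 5 hepatic markers summed to 1287 TPM in PGT and 1378 TPM in SC-β organoids. Most of these hepatic sums was TTR, at 943 TPM in PGT and 1229 TPM in SC-β organoids. In SC-β organoids AFP, ALB, APOA1 and FGB were at 34.3 to 39.9 TPM each, so the sum there mainly describes TTR. Because these are bulk samples, a lower level can reflect fewer cells of a type or less RNA per cell, and these cannot be told apart. The 100 most abundant names held between 47.6% of the TPM total in DE and 62.9% in PH, and all other values share what is left.

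The classes peaked at different stages. FZD receptors summed to 828 TPM in DE against 136 TPM in hESCs, and were lower again at 270 TPM in PGT, 166 TPM in PP and, in SC-β organoids, 137 TPM. SFRP genes also peaked in DE, at 501 TPM, whereas DKK genes peaked in PGT, at 453 TPM. WNT ligands were lowest in DE, at 20.3 TPM, and highest in SC-β organoids, at 167 TPM. R-spondins were at 0.182 TPM in sum in hESCs and at 35.8 TPM in SC-β organoids. PH differed from PP most in the DKK class, at 91.2 against 19.5 TPM.

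**Figure D1:**
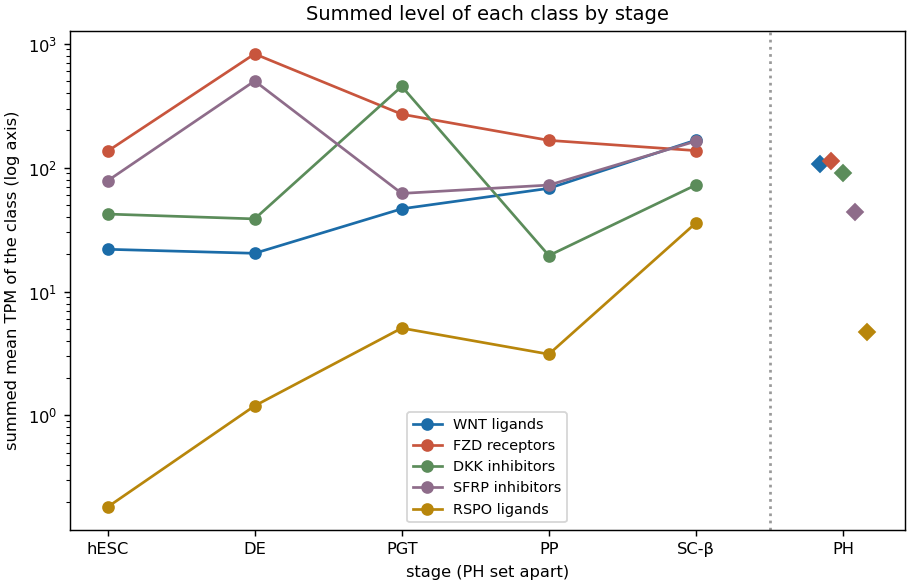
Summed mean TPM of each class on a log axis, by stage, with PH (diamonds) set apart. FZD and SFRP sums peak in DE (828 and 501 TPM), the DKK sum in PGT (453 TPM), and the WNT and RSPO sums in SC-β organoids (167 and 35.8 TPM).

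The gene that led each class changed from stage to stage. Among ligands, WNT3 led in hESCs, DE and PH, WNT9B in PGT, and WNT5A in PP and SC-β organoids. FZD7 led the receptors in hESCs, PP and SC-β organoids, FZD5 in DE, FZD4 in PGT and FZD3 in PH. Of the 8 DKK and SFRP inhibitors, SFRP2 led in hESCs and PP, SFRP1 in DE and SC-β organoids, DKK1 in PGT and DKK3 in PH. Some leaders held nearly the whole class, since SFRP1 made up 95.1% of the SFRP sum in DE and DKK1 94.8% of the DKK sum in PGT.

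**Figure D2:**
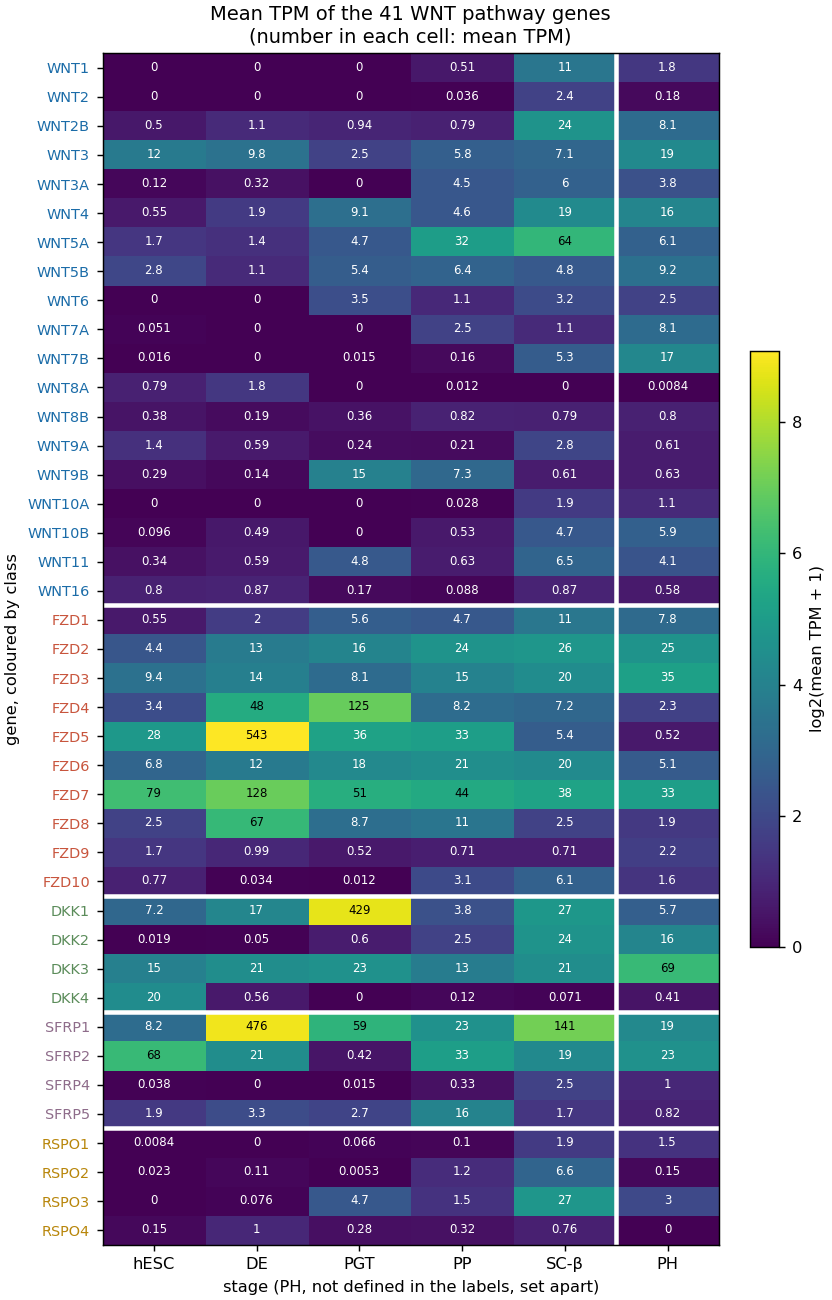
Mean TPM of all 41 genes (rows, coloured by class) in the 6 stages (columns), with colour on a log2(TPM + 1) scale and the TPM written in each cell. FZD5 and SFRP1 stand out in DE, DKK1 and FZD4 in PGT, and most WNT ligands are near 0 before PP.

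Few ligands were present at the early stages. Only 4 of the 19 WNT genes reached 1 TPM in hESCs, then 6 in DE and 7 in PGT, against 8 in PP, 13 in PH and 15 in SC-β organoids. The number of all names at 1 TPM or more was likewise smallest for hESCs (16784) and largest for SC-β organoids (24571). The rise in ligands between these stages was therefore partly shared with the whole table. DE had more such names (21619) than PP (19225) or PH (19548), but fewer ligands than either. WNT3, the ligand needed to start gastrulation in mouse embryos, was at 12.1 TPM in hESCs, then 9.76 in DE, 2.49 in PGT, 5.79 in PP, 18.7 in PH and 7.06 in SC-β organoids. It made up 55.0% of the ligand sum in hESCs and 47.9% in DE, and it was 3.93-fold lower in PGT than in DE.

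WNT9B, known for its role in kidney tubule formation, was at 0.291 TPM in hESCs, then 0.135 in DE, 14.7 in PGT, 7.31 in PP, 0.633 in PH and 0.605 in SC-β organoids. It was above 1 TPM in PGT and PP only, and its log2 ratio of PGT to DE was 3.79. WNT4, which acts in kidney and gonad development, was at 0.546 TPM in hESCs, then 1.93 in DE, 9.08 in PGT, 4.58 in PP, 16.5 in PH and 19.2 in SC-β organoids. WNT4 thus had a first high in PGT, 4.71-fold above DE, and a second in SC-β organoids, 4.2-fold above PP.

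WNT5A, the main β-catenin-independent ligand, was at 1.72 TPM in hESCs, then 1.42 in DE, 4.72 in PGT, 32.0 in PP, 6.13 in PH and 64.3 in SC-β organoids. It was 6.78-fold higher in PP than in PGT and 2.01-fold higher in SC-β organoids than in PP, where the log2 ratio with 1 TPM added was 0.98 and so just under the limit. In PH it was 10.5-fold lower than in SC-β organoids. Its relative WNT5B was at 2.84 TPM in hESCs, then 1.14 in DE and at most 9.20 TPM, in PH, and was not highest in SC-β organoids.

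The remaining ligands at 10 TPM or more were late. WNT2B, a mesenchymal ligand in several organs, was at 0.496 TPM in hESCs, then 1.12 in DE, 0.942 in PGT, 0.791 in PP, 8.10 in PH and 24.4 in SC-β organoids. WNT1, a ligand of the midbrain and dorsal neural tube, was listed at 0 in hESCs, DE and PGT and was at 0.509 TPM in PP, 1.77 in PH and 11.0 in SC-β organoids. WNT7B was at 0.0162 TPM in hESCs, listed at 0 in DE, and at 0.0146 in PGT, 0.161 in PP, 17.2 in PH and 5.27 in SC-β organoids. WNT2B, WNT1 and WNT7B were therefore all below 2 TPM up to PP, but WNT7B was 3.27-fold higher in PH than in SC-β organoids while WNT2B was 3.02-fold and WNT1 6.18-fold lower.

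Of the 10 ligands with a maximum between 1 and 10 TPM, 5 were highest in SC-β organoids, namely WNT11 (6.55 TPM), WNT3A (6.04 TPM), WNT9A (2.76 TPM), WNT2 (2.42 TPM) and WNT10A (1.88 TPM). The lowest stages of these genes were hESCs for WNT11 (0.343 TPM), PP for WNT9A (0.214 TPM), and stages listed at 0 for the others. WNT7A (8.12 TPM) and WNT10B (5.92 TPM) were highest in PH, as was WNT5B, and both were listed at 0 in PGT. WNT6 peaked in PGT at 3.54 TPM and was listed at 0 in hESCs and DE. WNT8A, an early embryonic ligand, peaked in DE at 1.81 TPM and was listed at 0 in PGT and SC-β organoids. WNT8B and WNT16 did not reach 1 TPM in any stage.

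The Frizzled receptors, in contrast, were present from the start, with 8 of 10 at 1 TPM or more in hESCs. FZD7, known as the main Frizzled of human embryonic stem cells, was at 78.7 TPM in hESCs, then 128 in DE, 50.8 in PGT, 44.4 in PP, 32.7 in PH and 37.9 in SC-β organoids. It was highest in DE and lowest in PH, and held 58.0% of the FZD sum in hESCs but 15.5% in DE.

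In DE the receptor sum was taken over by FZD5. This gene (chromosome 2, 207762598 to 207769906, reverse strand; GENCODE version 44, GRCh38) was at 27.5 TPM in hESCs, then 543 in DE, 36.3 in PGT, 33.5 in PP, 0.520 in PH and 5.40 in SC-β organoids. FZD5 was 19.7-fold higher in DE than in hESCs, ranked 141 of 49085 names there, held 65.6% of the FZD sum, and was 14.9-fold lower again in PGT. FZD8, its closest relative, was at 2.49 TPM in hESCs, then 66.8 in DE, 8.71 in PGT, 10.6 in PP, 1.85 in PH and 2.49 in SC-β organoids. The pair moved alike into and out of DE, since FZD8 was 26.8-fold higher in DE than in hESCs and 7.66-fold lower in PGT than in DE, and both were lower in SC-β organoids than in PP, by 6.20-fold for FZD5 and 4.27-fold for FZD8.

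The 250 bases before the start sites of FZD5 and FZD8 (RefSeq, GRCh38.p14, gene strand) are shown because this pair of relatives shared its peak, and those of DKK1 because it had the highest level of the DKK genes. Capitals mark TATAAA, a form of the TATA box.

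FZD5, chr2:207769907-207770156, reverse strand: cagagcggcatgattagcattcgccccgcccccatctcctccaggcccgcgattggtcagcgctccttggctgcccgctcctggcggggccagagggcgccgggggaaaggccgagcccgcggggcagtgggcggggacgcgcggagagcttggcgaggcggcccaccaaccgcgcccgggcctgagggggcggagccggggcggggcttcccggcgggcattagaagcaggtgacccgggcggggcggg
FZD8, chr10:35642297-35642546, reverse strand: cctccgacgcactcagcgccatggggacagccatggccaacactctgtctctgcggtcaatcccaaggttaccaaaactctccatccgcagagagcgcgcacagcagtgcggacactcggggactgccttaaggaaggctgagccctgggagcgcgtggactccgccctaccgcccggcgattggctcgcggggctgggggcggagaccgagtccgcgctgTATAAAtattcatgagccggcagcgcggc
DKK1, chr10:52314031-52314280, forward strand: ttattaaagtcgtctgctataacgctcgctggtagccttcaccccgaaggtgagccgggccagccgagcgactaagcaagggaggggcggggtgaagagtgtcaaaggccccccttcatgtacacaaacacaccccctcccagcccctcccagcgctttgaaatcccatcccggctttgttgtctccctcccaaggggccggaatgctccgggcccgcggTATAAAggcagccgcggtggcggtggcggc

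The relatives FZD5 and FZD8 differ in this stretch, since TATAAA lies 29 bases before the start of FZD8 and 30 bases before that of DKK1, and no such letters are in the FZD5 window. On the gene strand and between 25 and 35 bases before the start, TATAAA was found in 2.17% of 35116 promoters, and of the 31 promoters of 28 member genes in the table only these 2 had it. Anywhere in the window and on either strand, TATAAA was in 3 of the 31 member promoters and in 10.7% of all. The TCF/LEF motif CTTTGAT was in 0 of the 31 member promoters and in 2.26% of all. The GATA motif AGATAAG was likewise in 0 of the 31 and in 2.36% of all. The FOXA motif TGTTTAC was in 1 of the 31, that of WNT5B, and in 2.98% of all. These motifs do not overlap one another, and each was searched on both strands of RefSeq promoters, which run a little past the start site. The window is short and the motifs were searched as exact letters, so these are descriptions of the sequence only. Member promoters were rich in G and C, with a median of 70.8% against 58.0% for all promoters.

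FZD4, the receptor for norrin in retinal vessels, followed FZD5 by a stage. It was at 3.40 TPM in hESCs, then 47.7 in DE, 125 in PGT, 8.22 in PP, 2.34 in PH and 7.19 in SC-β organoids. FZD4 was 14-fold higher in DE than in hESCs, 2.63-fold higher again in PGT, where it held 46.4% of the FZD sum, and 15.3-fold lower in PP.

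FZD1 and FZD2, the relatives of FZD7, were low in hESCs and highest in SC-β organoids. FZD1 was at 0.546 TPM in hESCs, then 2.04 in DE, 5.61 in PGT, 4.68 in PP, 7.76 in PH and 11.1 in SC-β organoids. FZD2 was at 4.36 TPM in hESCs, then 12.8 in DE, 16.2 in PGT, 24.3 in PP, 24.7 in PH and 26.4 in SC-β organoids. Their summed level with FZD7 stayed between 65.2 and 83.6 TPM outside DE, with less FZD7 and more FZD1 and FZD2 in SC-β organoids than in hESCs.

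FZD3 and FZD6, receptors used in planar cell polarity, had opposite values in PH. FZD3 was at 9.42 TPM in hESCs, then 14.3 in DE, 8.11 in PGT, 15.1 in PP, 35.2 in PH and 20.3 in SC-β organoids. FZD6 was at 6.77 TPM in hESCs, then 12.2 in DE, 18.2 in PGT, 21.3 in PP, 5.12 in PH and 19.5 in SC-β organoids. FZD3 was 2.33-fold higher and FZD6 4.17-fold lower in PH than in PP, and the neural markers were at 340 TPM in PH and 60.7 TPM in PP, whose part in this was not tested. FZD10 ranged from 0.0123 TPM in PGT to 6.14 TPM in SC-β organoids, and FZD9 from 0.523 TPM in PGT to 2.22 TPM in PH.

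**Figure D3:**
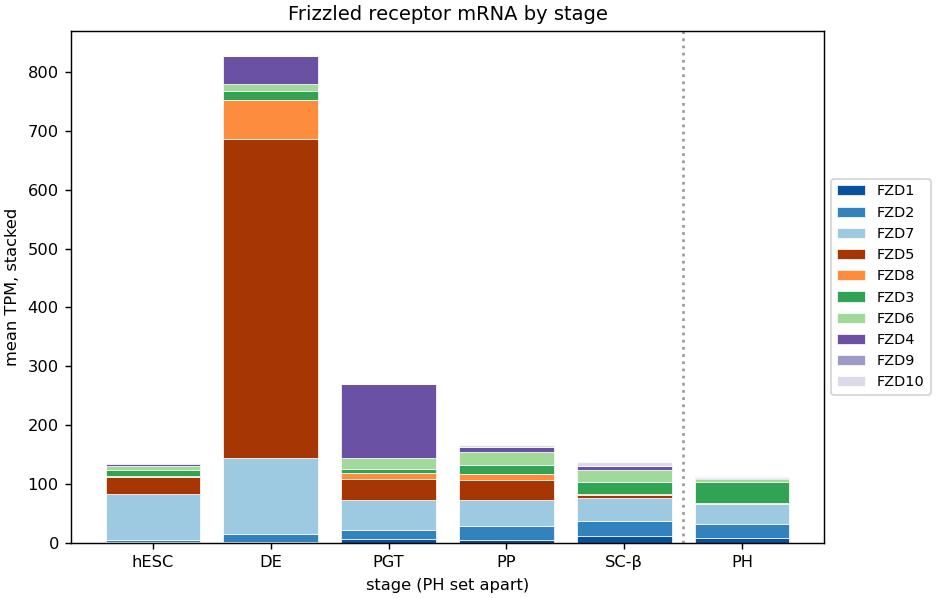
Mean TPM of the 10 Frizzled receptors stacked by stage, with PH set apart; colour families join related receptors. FZD5 (543 TPM) makes up most of the DE bar, FZD4 (125 TPM) the top of the PGT bar, and FZD7 is the largest part in hESCs (78.7 TPM).

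R-spondins were close to absent until PGT. RSPO3, the most abundant of them, was listed at 0 in hESCs and was at 0.0758 TPM in DE, 4.71 in PGT, 1.49 in PP, 3.00 in PH and 26.6 in SC-β organoids. It was 17.8-fold higher in SC-β organoids than in PP and 8.87-fold lower in PH than in SC-β organoids. RSPO2 ranged from 0.00527 TPM in PGT to 6.6 TPM in SC-β organoids, RSPO1 from a listed 0 in DE to 1.88 TPM in SC-β organoids, and RSPO4 from a listed 0 in PH to 1.01 TPM in DE. LGR5, a receptor for R-spondins, had another course, at 0.571 TPM in hESCs, then 38.5 in DE, 19.4 in PGT, 2.1 in PP, 9.19 in PH and 6.76 in SC-β organoids. The receptor was thus highest in DE, where all 4 R-spondins together were at 1.19 TPM.

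Among the inhibitors, SFRP1 and DKK1 had the highest peaks. SFRP1 was at 8.17 TPM in hESCs, then 476 in DE, 58.8 in PGT, 23.0 in PP, 18.5 in PH and 141 in SC-β organoids. It was 58.3-fold higher in DE than in hESCs, ranked 166 of all names in DE, and was 8.10-fold lower in PGT. After the low in PP it was 6.12-fold higher in SC-β organoids, and in PH it was 7.58-fold lower than in SC-β organoids.

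SFRP2 and SFRP1 moved in opposite directions from hESCs to DE, and both were lower in PGT than in DE. It was at 68.2 TPM in hESCs, then 21.2 in DE, 0.416 in PGT, 33.4 in PP, 23.1 in PH and 18.7 in SC-β organoids. While SFRP1 was above its hESC level in DE and PGT, SFRP2 was 3.22-fold lower in DE than in hESCs and under 1 TPM in PGT. SFRP5, which marks the foregut in mouse embryos, was at 1.85 TPM in hESCs, then 3.29 in DE, 2.68 in PGT, 15.6 in PP, 0.824 in PH and 1.72 in SC-β organoids. It was high in PP alone, 5.85-fold above PGT and 9.09-fold above SC-β organoids. SFRP4 did not exceed 2.48 TPM, its level in SC-β organoids, and was listed at 0 in DE.

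DKK1 (chromosome 10, 52314281 to 52318042, forward strand), an LRP-binding inhibitor and itself a target of the pathway, was at 7.16 TPM in hESCs, then 16.8 in DE, 429 in PGT, 3.79 in PP, 5.65 in PH and 27.4 in SC-β organoids. It was 25.5-fold higher in PGT than in DE, ranked 171 of all names there, and was 113-fold lower in PP, the widest change of any member in these comparisons, with a log2 ratio of -6.49. The sum of the 5 hepatic markers moved the same way, from 34.6 TPM in DE to 1287 TPM in PGT and 129.6 TPM in PP. Most of the PGT sum was TTR, at 943 TPM, and AFP was not lower in PP than in PGT (27.1 against 22.2 TPM). The part of hepatic cells in the DKK1 values was not tested.

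DKK4, which acts on LRP5 and LRP6 like DKK1, was highest in hESCs, second there among the DKK and SFRP genes to SFRP2. It was at 20.4 TPM in hESCs, then 0.557 in DE, listed at 0 in PGT, and at 0.117 in PP, 0.407 in PH and 0.0712 in SC-β organoids. DKK2 was instead lowest in hESCs and highest in SC-β organoids, at 0.0185 TPM in hESCs, then 0.0503 in DE, 0.605 in PGT, 2.47 in PP, 16.5 in PH and 24.2 in SC-β organoids. DKK3, a divergent member that binds neither LRP5 nor LRP6 in the usual way, was at 14.6 TPM in hESCs, then 21.2 in DE, 23.0 in PGT, 13.1 in PP, 68.7 in PH and 20.9 in SC-β organoids. DKK3 stayed between 13.1 and 23.0 TPM outside PH, where it was 5.23-fold above PP and 3.30-fold above SC-β organoids.

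Stage against stage, the counts of members were read beside those of the 28202 names, 39 members included, that reached 1 TPM in some stage. In DE against hESCs, 6 of 41 members were at least 2-fold higher, against 22.5% of all names, and 2 were at least 2-fold lower, against 4.43%. The higher genes were FZD2, FZD4, FZD5, FZD8, DKK1 and SFRP1, and the lower were DKK4 and SFRP2. The share of members higher was below that of all names, but 4 members (FZD4, FZD5, FZD8 and SFRP1) were at least 4-fold higher, against 3.76% of names. DKK4 was the 1 member at least 4-fold lower, against 1.16%. With stages brought to a common median ratio, the split was 4 higher and 3 lower, against 12.7% and 8.32% of names, and FZD2 and DKK1 were no longer called.

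In PGT against DE, 10 members were higher and 7 lower, against 4.0% and 8.56% of names. Of the 10 higher, 6 were ligands (WNT4, WNT5A, WNT5B, WNT6, WNT9B and WNT11), and the others were FZD1, FZD4, DKK1 and RSPO3. The lower genes were WNT3, WNT8A, FZD5, FZD7, FZD8, SFRP1 and SFRP2. In PP against PGT, 8 members were higher and 6 lower, against 4.77% and 5.65% of names. WNT3A, WNT5A, WNT7A, FZD10, DKK2, SFRP2, SFRP5 and RSPO2 were higher, and WNT6, WNT11, FZD4, DKK1, SFRP1 and RSPO3 were lower. At 4-fold, 4 members were higher and 4 lower in PGT, against 1.07% and 1.88% of names, and 5 were higher and 2 lower in PP, against 1.28% and 1.18%. In both steps the share of members called was above that of all names in each direction.

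In SC-β organoids against PP, 18 members were higher and 4 lower, against 18.5% and 1.63% of names. The higher genes were 10 ligands, FZD1, DKK1, DKK2, SFRP1, SFRP4, RSPO1, RSPO2 and RSPO3, and the lower were WNT9B, FZD5, FZD8 and SFRP5. At 4-fold, 8 members were higher and 3 lower, against 2.99% and 0.227% of names. The median log2 ratio of the 39 members that reached 1 TPM was 0.80, against 0.39 for all such names. The mesenchymal markers moved with this group, from 175 to 1880 TPM in sum, as did the endocrine markers, from 291 to 4122 TPM. The hepatic markers went from 129.6 to 1378 TPM, the neural from 60.7 to 133 TPM and the endothelial from 2.01 to 3.99 TPM. Most of the endocrine sum was CHGA in PP, at 215 TPM, and GCG in SC-β organoids, at 2793 TPM. The part of each list in the 18 members was not tested.

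**Figure D4:**
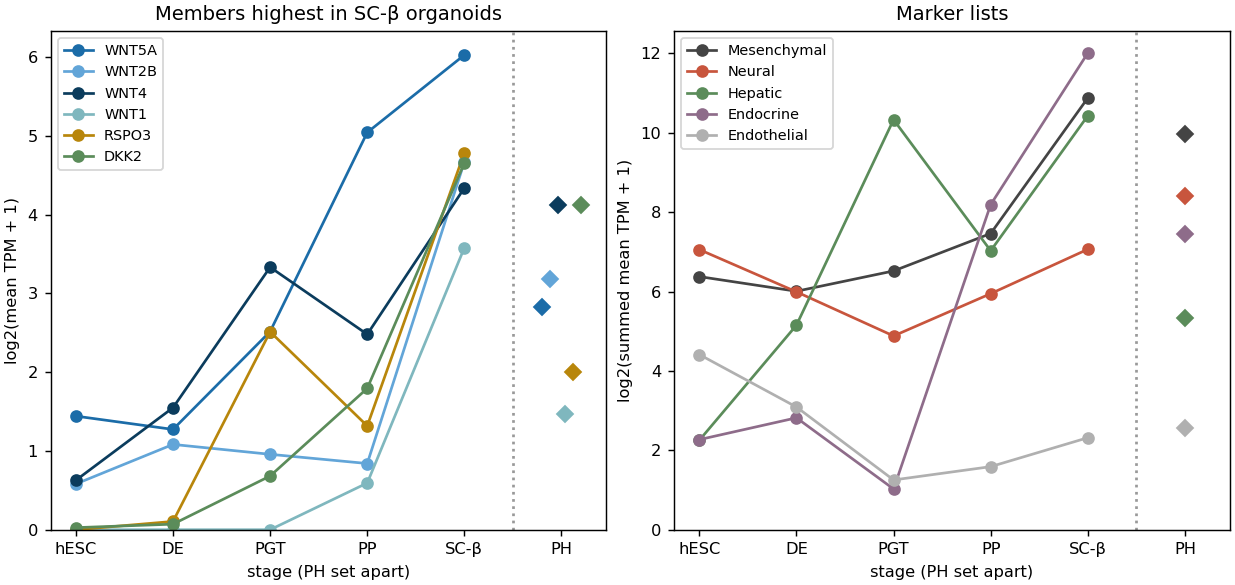
Left, log2(mean TPM + 1) of 6 members that were highest in SC-β organoids; right, log2 of the summed mean TPM + 1 of the marker lists of other and expected cell types, both by stage with PH (diamonds) set apart. Every marker sum shown is higher in SC-β organoids than in PP. The members are too, but they were drawn because they were highest there. The endothelial sum is highest in hESCs (20.3 TPM), where nearly all of it is KDR (20.2 TPM), with PECAM1 and CDH5 at 0.137 and 0.0143 TPM.

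PH was compared with PP and with SC-β organoids, which share the PH column, so the comparisons are not independent. Against PP, 12 members were higher and 7 lower, against 8.94% and 9.97% of names. WNT2B, WNT3, WNT4, WNT7A, WNT7B, WNT10A, WNT10B, WNT11, FZD3, DKK2, DKK3 and RSPO1 were higher, and WNT5A, WNT9B, FZD4, FZD5, FZD6, FZD8 and SFRP5 were lower. At 4-fold, 5 members were higher than in PP and 5 lower, against 2.34% and 1.76% of names. Against SC-β organoids, 4 members (WNT3, WNT7A, WNT7B and DKK3) were higher and 13 lower, against 4.19% and 25.5% of names. At 4-fold, 1 member was higher and 7 lower, against 1.07% and 4.1% of names. After rescaling, the split against SC-β organoids was 7 higher and 11 lower, against 7.4% and 14.4% of names, with WNT5B, FZD3 and FZD9 added to the higher genes. The neural marker sum was 340 TPM in PH against 133 TPM in SC-β organoids, and the mesenchymal sum 994 against 1880 TPM. The endocrine sum was 174 against 4122 TPM and the hepatic sum 39.4 against 1378 TPM. The part of these cell types in the differences was not tested.

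**Figure D5:**
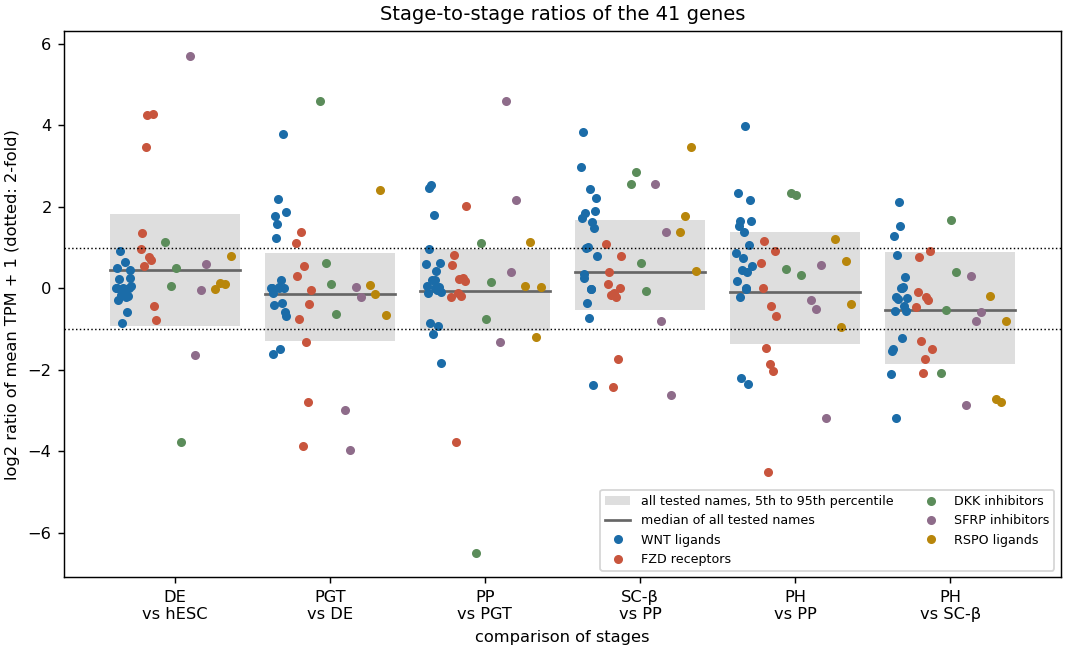
Log2 ratios of mean TPM + 1 of the 41 genes (points, by class) in 6 comparisons of stages, over the 5th to 95th percentile (grey) and median (line) of the 28202 names at 1 TPM or more in some stage. DKK1 lies lowest in PP against PGT (-6.49) and SFRP1 highest in DE against hESCs (5.70).

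Of the 41 members, 18 had their highest value in SC-β organoids, 8 in PH, 6 in DE, 4 in PGT, 3 in PP, and just 2 in hESCs. The same shares over all names were 38.8% in SC-β organoids, 13.5% in PH, 12.5% in hESCs, 20.6% in DE, 9.94% in PGT and 4.66% in PP. Without the PH column, a choice made after the data were seen, 21 members were highest in SC-β organoids, 4 in hESCs, 6 in DE, 5 in PGT and 5 in PP, against 46.5%, 13.5%, 22.5%, 11.4% and 6.18% of names. The share of members highest in SC-β organoids, 43.9%, lay near that of all names.

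WNT genes often lie side by side in the genome, and 4 pairs of members had less than 100 kb between them. WNT3 (chromosome 17, 46762506 to 46833154, reverse strand) and WNT9B (46833201 to 46886730, forward strand) are 46 bases apart as annotated in GENCODE. They were nevertheless high in different stages, with WNT9B above WNT3 in PGT (14.7 against 2.49 TPM) and WNT3 above WNT9B in hESCs (12.1 against 0.291 TPM) and PH (18.7 against 0.633 TPM). WNT10B (chromosome 12, 48965340 to 48971735, reverse strand) and WNT1 (48978322 to 48982620, forward strand), with 6586 bases between them, were both under 1 TPM up to PP and higher later. WNT10B exceeded WNT1 in PH, at 5.92 against 1.77 TPM, and WNT1 exceeded WNT10B in SC-β organoids, at 11.0 against 4.69 TPM. WNT6 and WNT10A (chromosome 2, 6618 bases apart) differed in PGT, where WNT6 was at 3.54 TPM and WNT10A was listed at 0. WNT9A and WNT3A (chromosome 1, 59065 bases apart) differed in PP, at 0.214 and 4.53 TPM.

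The other 51 genes of the pathway, fixed as lists by role, were read in the same way. In DE against hESCs, 17 were higher and 3 lower, against 22.5% and 4.43% of all names. In PGT against DE, 4 were higher and 9 lower, against 4.0% and 8.56%, and in PP against PGT, 10 were higher and 5 lower, against 4.77% and 5.65%. In SC-β organoids against PP, 11 were higher and 1 lower, against 18.5% and 1.63%. In PH, 4 were higher and 7 lower than in PP, against 8.94% and 9.97%, and 0 were higher and 13 lower than in SC-β organoids, against 4.19% and 25.5%. WLS and PORCN, which are needed to make and secrete WNT proteins, were both higher in DE, WLS at 57.6 against 9.66 TPM and PORCN at 27.2 against 7.37 TPM, although the ligands were at their lowest there. WLS was highest in SC-β organoids, at 159 TPM. Of 8 co-receptors and related receptors, 3 (LRP6, ROR1 and ROR2) were higher in DE, against 22.5% of names. The 51 genes were not recounted with stages brought to a common median ratio. That step shifts log2 ratios of DE to hESCs by about -0.48, so calls near the limit, such as LRP6 at 1.45, are uncertain. ROR2, a WNT5A receptor, was at 67.2 against 6.09 TPM.

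Of the 8 secreted inhibitors outside the DKK and SFRP families, 3 (CER1, FRZB and NOTUM) were highest in DE, against 20.6% of all names. In DE against hESCs, 4 of the 8 were higher and 1 lower, against 22.5% and 4.43% of names. CER1, which binds Nodal, BMP and WNT proteins, was at 270 TPM in hESCs, then 1483 in DE and 1.63 in PGT. FRZB, a relative of the SFRPs, was at 0.588 TPM in hESCs, then 50.3 in DE, 3.80 in PGT and 21.8 in PP. In PP against PGT, 5 of 8 such inhibitors (FRZB, WIF1, SOST, SOSTDC1 and APCDD1) were higher and 0 lower, against 4.77% and 5.65% of names.

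Of 9 components of the cytoplasmic core, 1 (APC) was higher in DE than in hESCs and 0 were lower, against 22.5% and 4.43% of names. With so few genes, this count does not set the core apart from other names. CTNNB1, which encodes β-catenin, was between 249 TPM in PH and 506 TPM in PGT. Among 8 nuclear factors, LEF1 was at 0.453 TPM in hESCs, then 0.933 in DE, 3.17 in PGT, 24.5 in PP, 25.0 in PH and 45.2 in SC-β organoids. TCF7, TCF7L1 and TCF7L2 were instead at least 2-fold higher already in DE, with TCF7L2 at 29.3 against 6.24 TPM. The call of TCF7L1, at a log2 ratio of 1.36, is uncertain for the same reason as that of LRP6. Of the 8 nuclear factors, 5 were higher in DE than in hESCs and 0 lower, against 22.5% and 4.43% of names.

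Of 11 feedback and target genes, AXIN2, a general target of β-catenin signalling, was at 16.6 TPM in hESCs, then 18.2 in DE, 11.2 in PGT, 25.9 in PP, 44.4 in PH and 81.9 in SC-β organoids. AXIN2 was lowest in PGT, where DKK1 was highest, but its log2 ratio of PGT to DE was -0.65 and so under the limit. In that step 2 of the 11 genes were higher, TNFRSF19 among them (53.0 against 13.4 TPM), and 2 were lower, against 4.0% and 8.56% of names. AXIN2 was highest in SC-β organoids. NKD1 and NKD2, feedback inhibitors, were also highest there, at 27.1 and 13.4 TPM. SP5 had the opposite course, at 13.4 TPM in hESCs, then 26.3 in DE, 22.0 in PGT and at most 1.13 TPM from PP on, so the targets did not share a single pattern.

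Several members overlap other genes, and whether the counting used strand is not given in the sources used here. DKK3 and USP47 overlap by 5681 bases on opposite strands. USP47 was above DKK3 in every stage, and both were highest in PH. USP47 was at 55.8 TPM in PP, 75.7 TPM in PH and 63.2 TPM in SC-β organoids, against 13.1, 68.7 and 20.9 TPM for DKK3. The part of USP47 in the DKK3 values was not tested. FZD4 and PRSS23 share 7232 bases, and PRSS23 was at 16.6 TPM in PGT but 27.2 TPM in SC-β organoids, unlike FZD4. WNT2 shares 36033 bases with CFTR, which was at 12.5 TPM in SC-β organoids against 2.42 TPM for WNT2, and WNT2B shares 6652 bases with ST7L, at 22.7 TPM there. WNT5B shares 28589 bases with FBXL14 on the opposite strand, and FBXL14 was above WNT5B in every stage. Both were highest in PH, at 23.5 TPM for FBXL14 and 9.20 TPM for WNT5B. Both were also higher in PGT than in DE, FBXL14 at 12.6 against 8.36 TPM and WNT5B at 5.43 against 1.14 TPM. WNT5A-AS1, on the strand opposite WNT5A, was at 11.6 TPM in SC-β organoids. SFRP4 shares 31297 bases with EPDR1 on the opposite strand. EPDR1 was above SFRP4 in every stage, and both were highest in SC-β organoids, at 5.64 and 2.48 TPM. FZD6 shares 340 bases with BAALC-AS1 on the opposite strand, which was at 13.1 TPM in SC-β organoids. Values of these members are less certain where the partner is at a like or higher level.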

How the data were processed

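RNA was measured in 12 RNA-seq samples, 2 for each of 6 stages; the other samples of the series are not analysed here. The study's methods name RiboMinus rRNA removal and the labels a stranded mRNA kit, and which was used is not settled here. The authors' alignment used HISAT2 (version 2.2.0) on hg38, and StringTie (version 2.1.6) gave the TPM per gene, which the authors deposited as 1 mean per stage. The annotation is not given in the sources used here. TPM keeps no read counts, so the depth behind a value is unknown, no interval or floor can be given, and values under 1 TPM have no known precision. The members, gene lists and markers were chosen with earlier results of these data known.

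Entries sharing a name were summed. Ratios were log2((TPM + 1)/(TPM + 1)), called from 2-fold; folds are plain ratios of TPM where both stages were at 1 TPM or more. Background shares are over names at 1 TPM or more in some stage. Members at 10 TPM or more in some stage were given in all stages, those from 1 to 10 TPM by highest and lowest stage, and those under 1 TPM by name. Other pathway genes could be named where 1 of the compared stages reached 10 TPM and the change was 2-fold; those named are a choice among these, made after their values were seen, as were CTNNB1, SOST and SOSTDC1, which do not meet the rule. Positions are from GENCODE version 44. Alternatives were a pseudocount of 0.1 TPM, median-ratio rescaling over the 13938 names at 1 TPM or more in every stage, totals without the 100 most abundant names, a 4-fold limit, a filter at 1 TPM, the highest entry per name, hESCs as reference and, added after the data were seen, leaving out PH. Calculations were tested on simulated data. Python 3.11.15, numpy 2.4.6, pandas 2.3.3 and matplotlib 3.10.9 were used.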

Additional observations from a re-analysis of the deposited data

How the results depend on the processing

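No paired analysis was possible because each deposited column is a mean of replicates, and for the same reason no replicate could be left out. With a pseudocount of 0.1 TPM, 12 members were higher and 5 lower in DE against hESCs, 14 were lower in PGT against DE, 14 were higher in PP against PGT and 20 were higher in PH against PP. Median-ratio rescaling shifted log2 ratios by between -0.48 (DE against hESCs) and 0.50 (PH against SC-β organoids). With it or with totals without the 100 most abundant names, 7 members were higher in PH against SC-β organoids, the FZD sum there changed sign under 2-fold (from -0.27 to 0.23 and 0.19), and the SFRP sum in SC-β organoids against PP came under 2-fold (0.90 and 0.92). Without those names, 4 members were lower in DE against hESCs and the RSPO ratio there passed 2-fold (1.24). At 4-fold, the lower members were 1 in DE against hESCs, 4 in PGT against DE, 2 in PP against PGT and 7 in PH against SC-β organoids, and the higher members 4 in PGT against DE, 5 in PP against PGT, 8 in SC-β organoids against PP, 5 in PH against PP and 1 in PH against SC-β organoids. Against hESCs, 3 members were lower in PGT, and 17 were higher and 2 lower in PP. Without PH, 4 members were highest in hESCs and 5 in PP. The cause of these moves was not tested. All 97 ratios of single members past 2-fold kept their direction and side with a pseudocount of 0.1 TPM, and 91 did after rescaling; the others were DKK1 and FZD2 in DE against hESCs, WNT6 and FZD1 in SC-β organoids against PP, and WNT9A and FZD4 in PH against SC-β organoids. The filter at 1 TPM and the choice of entry could not change these counts.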
